A study of Mus musculus with 12 samples.

Results

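RNA levels of 10 genes, the cathepsins *Ctsa*, *Ctsb*, *Ctsc*, *Ctsd*, *Ctsh*, *Ctsk*, *Ctsl*, *Ctss*, and *Ctsz* and the cathepsin inhibitor cystatin C (*Cst3*), were compared between 4 lines of murine Braf V600E melanoma cells. The 10 genes are a fixed list of the 30705 gene names of the RNA-seq data. This list and the other gene lists used below were chosen with earlier results of these data known, so counts over them are descriptive. *Ctsc* was chosen on these same data, for its opposite changes between the lines, so its values are given as a description with no test. The cells came from a C57BL/6 mouse of the genotype Braf+/LSL-V600E;Tyr::CreERT2+/o;p16INK4a-/-, in which the tyrosinase promoter drives an inducible Cre, and all 4 groups share these alleles. Scramble cells were the control, and CRISPR/Cas9 kits had been used to knock out *ptgs1* (COX-1), *ptgs2* (COX-2), or *ptges* (mPGES-1, the microsomal prostaglandin E2 synthase) in the others. Each group had 3 samples of cultured cells, described in the study both as subclones of a line and as independent samples, so the spread between samples is that between subclones at most. Knockout lines selected with puromycin and grown from single cells can differ from each other by clone as well as by the gene removed, and clone and knockout cannot be told apart here.

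Cathepsins are proteases of the lysosome. They are made as inactive proenzymes, carried to the lysosome mostly by mannose 6-phosphate receptors, and cleaved into active form at acid pH, and some are also secreted and act on extracellular matrix. *Ctsb*, *Ctsc*, *Ctsh*, *Ctsk*, *Ctsl*, *Ctss*, and *Ctsz* code for cysteine proteases of the papain family, *Ctsd* for an aspartic protease, and *Ctsa* for a serine carboxypeptidase. Cystatins bind the active site of the cysteine cathepsins, and cystatin C is their main secreted inhibitor. In tumors, cathepsins are known for their part in matrix turnover and invasion.

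The sequences just upstream of a start of transcription are shown for 3 members. *Ctsh*, the member with the most calls below, is not among them, since no upstream sequence of it was found. *Ctsc* had the largest ratio between line means, leaving out *Ctss*, which was at 0 in most samples. *Ctsd* was the most abundant, and *Ctsz* was a member higher in *ptges*-KO cells. They are the 250 bases before a start of transcription listed in RefSeq (build GRCm38.p6), 5′ to 3′ on the strand of the gene. The gene spans given below are from GENCODE M21, and most of the *Ctsd* window lies inside that span. Capitals mark CACGTG, the core of the element that transcription factors of the MITF and TFE family, regulators of lysosomal genes, are known to bind.
Ctsc, chr7:88277835-88278084, plus strand: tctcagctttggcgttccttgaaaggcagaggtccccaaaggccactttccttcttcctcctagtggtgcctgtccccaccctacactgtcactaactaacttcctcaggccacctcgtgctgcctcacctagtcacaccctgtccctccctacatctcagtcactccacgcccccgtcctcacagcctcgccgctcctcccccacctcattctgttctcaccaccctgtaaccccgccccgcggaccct
Ctsd, chr7:142387828-142388077, minus strand: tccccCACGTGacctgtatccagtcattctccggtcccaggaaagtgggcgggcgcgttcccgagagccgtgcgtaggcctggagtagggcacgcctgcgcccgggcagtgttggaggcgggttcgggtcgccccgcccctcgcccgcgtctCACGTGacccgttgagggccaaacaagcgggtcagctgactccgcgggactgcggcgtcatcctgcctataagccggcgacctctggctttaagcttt
Ctsz, chr2:174439040-174439289, minus strand: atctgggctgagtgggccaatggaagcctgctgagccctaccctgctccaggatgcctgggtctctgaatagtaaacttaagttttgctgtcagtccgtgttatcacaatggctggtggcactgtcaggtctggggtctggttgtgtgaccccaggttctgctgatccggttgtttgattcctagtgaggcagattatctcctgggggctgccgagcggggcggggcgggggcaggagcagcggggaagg
CACGTG reads the same on both strands. It was present in 3 of 9 upstream sequences of the members, those of *Ctsd*, *Ctsl*, and the second start of *Ctsa*, and in 6.02% of all 32851 upstream sequences of the same length. The windows of *Ctsl* and of the second start of *Ctsa* lie wholly inside the gene spans given below, so their matches are upstream of a RefSeq start but within the gene. *Ctsd* had 2 matches, of which the one nearer to the start lies inside its gene span. The match of *Ctsd* nearer to the start and that of *Ctsa* were part of TCACGTGA, which 0.785% of all upstream sequences hold. The letters CATGTG, searched on both strands, were in none of the 9 and in 12.3% of all. No upstream sequence of *Ctsb* or *Ctsh* was used here. These matches are letters in a window, and binding was not measured.

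The values were deposited as RPKM (reads per kilobase of transcript, scaled to a common number of reads) to 2 decimals. Depth was estimated from the steps between low values, at 13520000 to 17720000 reads per sample, since the read counts themselves were not analysed here. Where 4 means follow each other, they stand for scramble cells and then the knockouts of *ptgs1*, *ptgs2*, and *ptges*, and 3 fold changes in a row stand for these knockouts against scramble. Levels of different genes can be compared because RPKM is divided by gene length. The knockouts were checked first at their target genes. *Ptgs1* was 141.65, 164.17, and 148.51 RPKM in the scramble samples and 16.91, 16.84, and 14.30 RPKM in *ptgs1*-KO cells. *Ptgs2* was 748.76, 776.77, and 758.60 RPKM in scramble and 78.53, 84.62, and 76.13 RPKM in *ptgs2*-KO cells. *Ptges* was 77.99, 75.01, and 79.82 RPKM in scramble and 41.01, 35.57, and 34.83 RPKM in *ptges*-KO cells. Each target was lowest in the line named for it, in all 3 samples, and the *ptges*-KO mean of *Ptges* was 37.1 RPKM. *Ptges* was also lower in *ptgs1*-KO cells than in scramble cells (log2 fold change -0.50, SE, the standard error, 0.08, limma adjusted p = 0.0011). *Ptgs2* was 624.02, 668.29, and 501.52 RPKM in *ptgs1*-KO cells, a log2 fold change of -0.36 (limma adjusted p = 0.0386), and this call held in 9 of 21 alternatives.

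The labelled cell type was checked against markers. Of 9 melanocytic markers, *Sox10*, *Tyrp1*, *Dct*, *Mlana*, and *Kit* were listed at 0 in all 12 samples, and the most abundant was *Mitf* with a mean of 2.30 RPKM. The summed level of the 9 markers was between 1.96 and 5.23 RPKM in every sample. These RNA profiles therefore hold few transcripts of pigment cell genes, in the scramble cells as in the knockouts. Of 12 leukocyte and macrophage markers, 6 were at 0 in all samples, among them *Lyz2*, *Aif1*, and *C1qa*, and the most abundant, *Cd68*, had a mean of 1.13 RPKM. Of 8 fibroblast markers, *Dcn*, *Lum*, and *Postn* were at 0 in all samples, and the most abundant was *Pdgfrb* with a mean of 10.4 RPKM. Of 6 osteoclast markers, the most abundant, *Mmp9*, had a mean of 0.0625 RPKM.

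The abundance of the 10 genes differed widely on the RPKM scale. By their mean over the 12 samples, *Ctsd* (784.8 RPKM, rank 131 of all 30705 gene names) and *Ctsl* (628.9 RPKM, rank 168) were far above the others. They were followed by *Ctsz* at 223.8 RPKM, *Cst3* at 205.3 RPKM, *Ctsb* at 164.0 RPKM, and *Ctsa* at 97.0 RPKM. *Ctsc* at 10.8 RPKM and *Ctsh* at 3.67 RPKM came next. *Ctsk* and *Ctss* had means of 0.406 and 0.0158 RPKM and did not reach the mean of 1 RPKM that a gene needed to be tested. Together *Ctsd* and *Ctsl* made up 63.2% to 69.5% of the summed level of the 10 genes in each sample. The share of *Ctsc* in that sum was at most 0.00573% in *ptgs1*-KO cells and at least 1.48% in *ptges*-KO cells. Among neighbors in the order, *Cst3* and *Ctsz* overlapped between samples, whereas every sample of *Ctsl* stood above every sample of *Ctsz*.

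**Figure D1:**
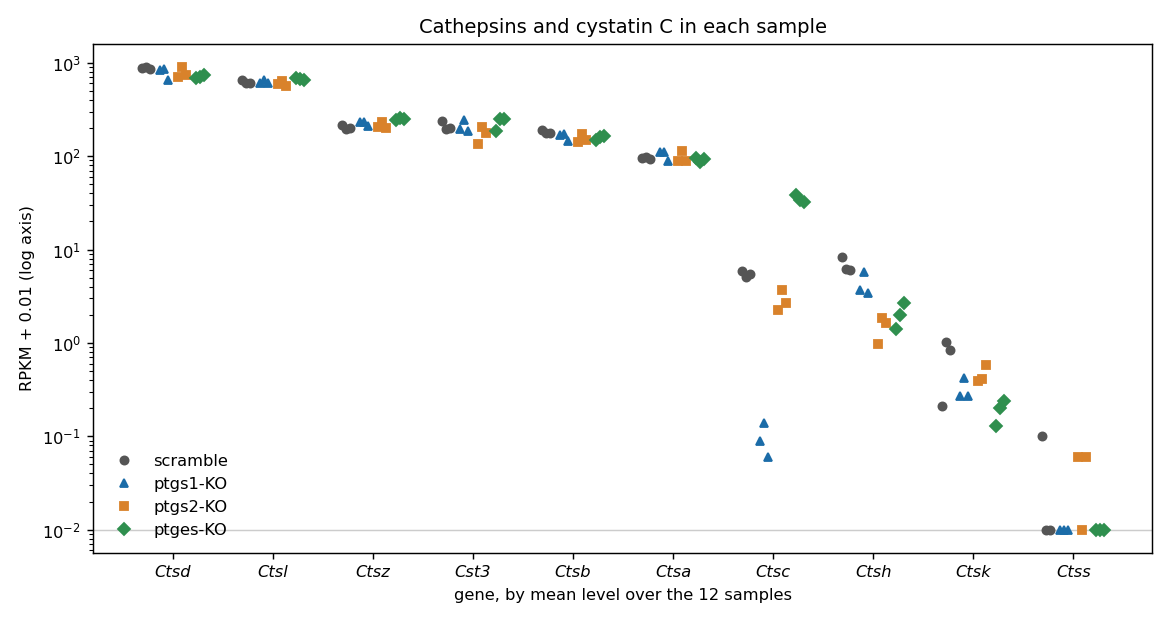
Level of each gene in each of the 12 samples, in RPKM with 0.01 added, on a log axis. Each point is a sample and each color and shape a cell line, and points on the gray line are listed at 0. *Ctsc* runs from 0.05 RPKM in a *ptgs1*-KO sample to 37.90 RPKM in a *ptges*-KO sample, while the 6 most abundant genes stay between 86.40 and 898.22 RPKM.

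Of the 10 genes, 8 passed the filter on low values, and 7 of these, all but *Ctsc*, were tested with limma on log2(RPKM + 1) in a model of all 11282 genes that reached a mean of 1 RPKM. In *ptgs1*-KO cells, 0 of the 7 differed from scramble cells at a Benjamini-Hochberg adjusted p under 0.05, where 4.65% of all genes tested were higher and 4.61% lower, and 1 of the 7 had an unadjusted p under 0.05. In *ptgs2*-KO cells, 1 of the 7 (*Ctsh*) was lower and 0 were higher, against 5.17% lower and 5.97% higher among all genes. In *ptges*-KO cells, *Ctsz* was higher and *Ctsh* lower, 1 gene in each direction, where 11.9% of all genes tested were higher and 14.4% lower. With 7 genes, these counts are near the background. The median log2 fold change of the 7 genes was -0.02 in *ptgs1*-KO, -0.18 in *ptgs2*-KO, and -0.06 in *ptges*-KO cells, and that of all genes tested was 0.01, 0.01, and -0.03. The 3 comparisons share the scramble samples.

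*Ctsc* codes for cathepsin C, or dipeptidyl peptidase I, which removes dipeptides from the N-terminus of proteins and in immune cells activates granzymes and the serine proteases of neutrophils. The gene lies on chromosome 7 (GRCm38, 88278085 to 88310888). Its level was 5.94, 5.11, and 5.40 RPKM in scramble cells. In *ptgs1*-KO cells it was 0.08, 0.13, and 0.05 RPKM. In *ptgs2*-KO cells it was 2.25, 3.71, and 2.64 RPKM, and in *ptges*-KO cells 37.90, 34.17, and 32.41 RPKM. None of the 4 groups overlapped another. The order was *ptges*-KO, scramble, *ptgs2*-KO, *ptgs1*-KO, with means of 34.8 ± 2.80, 5.48 ± 0.421, 2.87 ± 0.756, and 0.0867 ± 0.0404 RPKM (SD, n = 3). The mean in *ptges*-KO cells was 6.35 times that of scramble cells, that in *ptgs2*-KO cells was 52.3% of it, and that in *ptgs1*-KO cells was 1.58% of it. In these bulk samples, fewer cells that express a gene and less RNA per cell cannot be told apart. The opposite direction in *ptges*-KO and *ptgs1*-KO cells is what this gene was chosen for.

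The low end of *Ctsc* rests on few reads. At the estimated depths and a transcript of 3220 bases, the *ptgs1*-KO values correspond to about 4, 6, and 2 reads, 12 in all, against about 840 in the scramble samples and 5779 in the *ptges*-KO samples. The exact Poisson interval of 12 reads, 6.2 to 20.96, gives 0.0448 to 0.151 RPKM as the 95% range of the *ptgs1*-KO mean. The ratio of the scramble to the *ptgs1*-KO mean was 63.3, with an exact 95% interval of 36.0 to 123 for counting error only. On the log2(RPKM + 1) scale, which understates changes of low values, *Ctsc* differed from scramble by -2.58 in *ptgs1*-KO, -0.76 in *ptgs2*-KO, and 2.47 in *ptges*-KO cells. Over 21 other settings these values ran from -4.92 to -2.39, -0.94 to -0.64, and 2.40 to 2.65, and they did not change sign.

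Genes with a level pattern like that of *Ctsc* were named by Pearson's r with *Ctsc* over the 12 samples on the log2(RPKM + 1) scale, among 11274 genes tested other than the members. The samples fall into 4 lines, so r mainly compares 4 group levels. The 5 genes with the highest r were *Bnip3* (0.98), *Zswim5* (0.97), *Pfkl* (0.97), *Tpi1* (0.97), and *Klk10* (0.97). *Bnip3* codes for a mitochondrial protein of mitophagy, and *Pfkl* and *Tpi1* code for glycolytic enzymes. The mean level of *Bnip3* was 104.5 RPKM in scramble, 66.3 in *ptgs1*-KO, 95.4 in *ptgs2*-KO, and 213.7 in *ptges*-KO cells. The mean of *Zswim5* was also lower in *ptgs2*-KO than in scramble cells (1.27 against 1.63 RPKM), and that of *Klk10* hardly so (81.5 against 81.9 RPKM). *Pfkl* (137.4 against 130.9 RPKM) and *Tpi1* (904.9 against 881 RPKM) had higher means there than in scramble cells, unlike *Ctsc*. The 5 genes with the lowest r were *Spns2* (-0.99), *Ank3* (-0.98), *C130021I20Rik* (-0.98), *Slc25a29* (-0.97), and *Hsd17b11* (-0.97). *Spns2*, which codes for a sphingosine 1-phosphate transporter, had means of 6.65 RPKM in scramble, 17.5 in *ptgs1*-KO, 9.81 in *ptgs2*-KO, and 2.81 in *ptges*-KO cells. Its order over the lines was the reverse of that of *Ctsc*. The ratio of the *ptges*-KO to the *ptgs1*-KO mean was about 402 for *Ctsc*. It is imprecise, since the *ptgs1*-KO mean rests on about 12 reads (95% Poisson interval 6.2 to 20.96).

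None of the genes around *Ctsc* had its order of lines. Within 1000000 bases there were 5 other protein-coding genes of the table, of which 2 reached a mean of 1 RPKM. *Nox4*, an NADPH oxidase, had means of 9.36, 7.76, 10.2, and 9.05 RPKM over the 4 lines. *Tmem135* had means of 17.0, 17.9, 17.0, and 18.5 RPKM. *Rab38*, a small GTPase of melanosome traffic 119385 bases from *Ctsc*, had means of 0.363, 0, 1.41, and 1.41 RPKM. It was listed at 0 in *ptgs1*-KO cells, where *Ctsc* was lowest, but was as high in *ptgs2*-KO as in *ptges*-KO cells. *Tyr* and *Grm5* had means under 1 RPKM in all lines. These neighbors were named after their values were seen.

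No RNA of the proteases that cathepsin C activates in immune cells was present at more than a trace. Of 10 such genes, 8 were listed at 0 in all samples, among them *Elane*, *Ctsg*, *Gzma*, and *Gzmb*. *Prtn3* had a mean of 0.03 RPKM in scramble cells, and *Gzmk* had a mean of 0.03 RPKM in *ptgs1*-KO and 0.0767 RPKM in *ptges*-KO cells. The summed leukocyte and macrophage markers were 0.92, 0.75, and 0.93 RPKM in the *ptges*-KO samples, where *Ctsc* was highest, and 1.53, 1.76, and 2.19 RPKM in the scramble samples. *Cd68* had means of 1.73, 0.95, 1.07, and 0.77 RPKM over the 4 lines, and it reached the mean of 1 RPKM through the scramble samples, so no test of it is given.

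*Ctsh* codes for cathepsin H, an aminopeptidase, on chromosome 9 (GRCm38, 90054152 to 90076089). It was 8.38, 6.23, and 6.05 RPKM in scramble cells. In *ptgs1*-KO cells it was 3.71, 5.72, and 3.44 RPKM. In *ptgs2*-KO cells it was 0.97, 1.86, and 1.63 RPKM, and in *ptges*-KO cells 1.40, 1.97, and 2.69 RPKM. Every knockout sample was below every scramble sample, and the *ptgs2*-KO and *ptges*-KO samples overlapped each other but neither overlapped *ptgs1*-KO. The mean was 21.6% of the scramble mean in *ptgs2*-KO and 29.3% in *ptges*-KO cells. On limma's scale the log2 fold change was -1.67 (SE 0.21, adjusted p = 0.000205) in *ptgs2*-KO and -1.39 (SE 0.21, adjusted p = 0.000389) in *ptges*-KO cells, by limma over all genes tested. In *ptgs1*-KO cells the mean was 62.3% of scramble, with a log2 fold change of -0.59 (95% interval -1.03 to -0.14, limma adjusted p = 0.0994). That difference passed the threshold when *ptgs1*-KO replicate 2 was left out (limma adjusted p = 0.0436) and in none of the other 19 limma alternatives, and it was called by Tukey's test on the RPKM values, the multi-group test of the study.

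The knockouts were also compared with each other. *Ctsh* was lower in *ptgs2*-KO than in *ptgs1*-KO cells (log2 fold change -1.08, SE 0.21, adjusted p = 0.00185) and lower in *ptges*-KO than in *ptgs1*-KO cells (-0.81, SE 0.21, adjusted p = 0.0102), by limma over all genes tested. *Ptges*-KO minus *ptgs2*-KO was 0.28 (95% interval -0.17 to 0.72, limma adjusted p = 0.400). In each of the 3 comparisons 1 of the 7 members changed, *Ctsh* in both comparisons with *ptgs1*-KO cells and *Ctsz* where *ptges*-KO was set against *ptgs2*-KO. Of all genes tested, 23.6% differed from *ptgs1*-KO in *ptgs2*-KO cells, 30.2% differed from *ptgs1*-KO in *ptges*-KO cells, and 16.6% separated *ptges*-KO from *ptgs2*-KO cells. The calls of *Ctsh* against scramble in *ptgs2*-KO and *ptges*-KO cells, and those against *ptgs1*-KO cells, held in all 20 limma alternatives in which the gene could be tested. By Tukey's test the difference between *ptges*-KO and *ptgs1*-KO cells was not called. *Ctsh* was thus low in the *ptges*-KO cells, in which *Ctsc* was highest.

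*Ctsz*, on chromosome 2 (GRCm38, 174427493 to 174439039), codes for cathepsin Z, also called cathepsin X, a carboxypeptidase that binds integrins. Its level was 216.19, 197.23, and 199.93 RPKM in scramble cells. It was 233.91, 234.07, and 212.67 RPKM in *ptgs1*-KO cells and 203.31, 232.69, and 202.36 RPKM in *ptgs2*-KO cells. In *ptges*-KO cells it was 246.44, 256.97, and 250.34 RPKM, above every other sample of the data. The mean in *ptges*-KO cells was 1.23 times the scramble mean, with a log2 fold change of 0.30 (SE 0.08, adjusted p = 0.0120 by limma). This call was lost without scramble replicate 2 (limma adjusted p = 0.0507) and without *ptges*-KO replicate 2 (0.0519). Against *ptgs2*-KO cells the log2 fold change was 0.24 (SE 0.08, limma adjusted p = 0.0458), a call that held in 9 of 21 alternatives, with adjusted p between 0.00606 and 0.152. With a single sample left out it held only without *ptgs1*-KO replicate 1 or 3 or *ptgs2*-KO replicate 2. *Ctsz* was not called in *ptgs1*-KO (0.15, 95% interval -0.02 to 0.31) or *ptgs2*-KO cells (0.06, -0.11 to 0.22) against scramble.

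**Figure D2:**
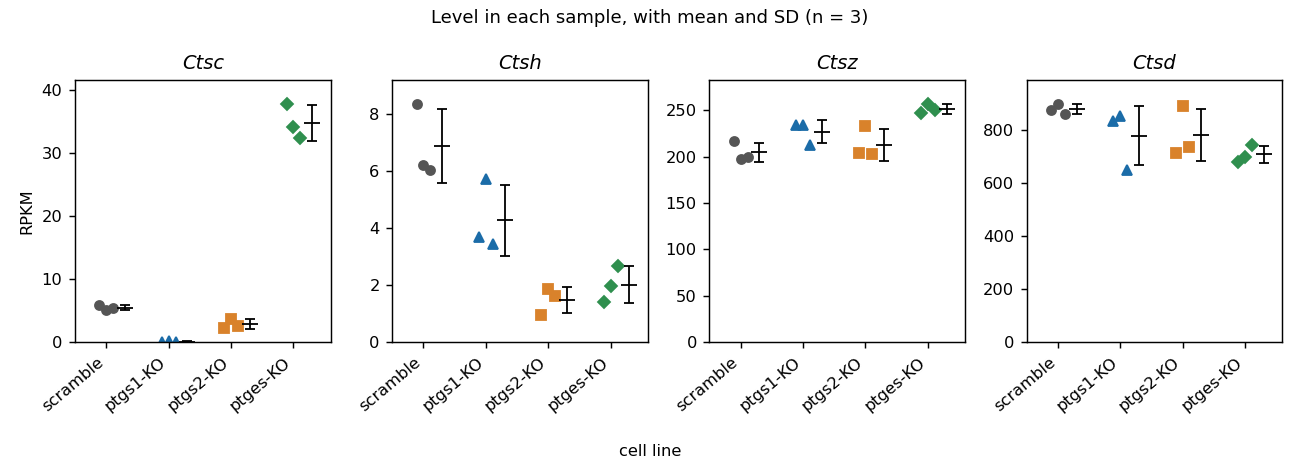
Level in RPKM (vertical axis, from 0) of *Ctsc*, *Ctsh*, *Ctsz*, and *Ctsd* in the 3 samples of each line, with the mean and SD beside them as a bar. *Ctsc* is lowest in *ptgs1*-KO and highest in *ptges*-KO cells, and *Ctsh* is at 2.69 RPKM or less in all *ptgs2*-KO and *ptges*-KO samples.

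The most abundant member, *Ctsd*, codes for cathepsin D, the main aspartic protease of the lysosome, on chromosome 7 (GRCm38, 142375911 to 142388038). It was 873.02, 898.22, and 859.47 RPKM in scramble cells. It was 831.91, 850.25, and 648.43 RPKM in *ptgs1*-KO, 711.12, 890.60, and 734.57 RPKM in *ptgs2*-KO, and 678.61, 698.41, and 743.20 RPKM in *ptges*-KO cells. All *ptges*-KO samples were below all scramble samples, with a mean at 80.6% of that of scramble. For *ptges*-KO cells this gave a log2 fold change of -0.31 (95% interval -0.56 to -0.07) and did not pass the threshold (limma adjusted p = 0.0581). It passed in 6 of 21 alternatives, with adjusted p from 0.00544 to 0.144, among them quantile normalization and the fit without *ptgs1*-KO replicate 3 (0.0196). In *ptgs1*-KO cells the difference was -0.18 (-0.43 to 0.06) and in *ptgs2*-KO cells -0.18 (-0.42 to 0.07).

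*Ctsd* was lowest in the library *ptgs1*-KO replicate 3. In that library the ribosomal RNA entries *Rn45s* and *AK155692* together held 13.5% of the summed RPKM of all genes, and in the other 11 libraries between 0.528% and 4.79%. Its mean correlation with the other samples of its line was 0.984, the lowest of the 12. It also had the lowest value of its line for *Ctsa*, *Ctsb*, *Ctsc*, *Ctsh*, *Ctsz*, and *Cst3*. In *ptgs2*-KO cells, replicate 1 had the highest share of the line (4.79%) and the lowest *Ctsa*, *Ctsb*, *Ctsc*, *Ctsd*, *Ctsh*, and *Cst3*. Replicate 2 of that line had the lowest share (0.528%) and the highest level of these genes. Among scramble samples, replicate 2 had the highest share (2.77%), the highest *Ctsa* and *Ctsd*, and the lowest *Ctsc*, *Ctsl*, *Cst3*, and *Ctsz*. In *ptges*-KO cells, replicate 1 had the highest share (2.83%), the lowest *Ctsb*, *Ctsd*, *Ctsh*, *Ctsz*, and *Cst3*, and the highest *Ctsa*, *Ctsc*, and *Ctsl*. *Ctsh* was thus lowest in the library with the highest share in each knockout line, but not in scramble cells. Over the 12 samples, Pearson's r with *Rn45s* was negative for all 8 members that passed the filter, from -0.61 (*Ctsb*) to -0.08 (*Ctsh*). It was -0.59 for *Ctsd*. These r pool all lines, so differences between lines enter them as well as differences between samples of a line. Beyond these values, the part of ribosomal RNA in the levels was not tested. The 2 entries were named after their values were seen.

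*Ctsl* codes for cathepsin L, an endopeptidase on chromosome 13 (GRCm38, 64359337 to 64370890). It was 647.99, 611.44, and 614.51 RPKM in scramble cells, 611.86, 652.80, and 613.38 RPKM in *ptgs1*-KO, 587.88, 631.64, and 565.08 RPKM in *ptgs2*-KO, and 693.29, 665.41, and 651.56 RPKM in *ptges*-KO cells. All *ptges*-KO samples were above all scramble samples, by little. The log2 fold changes against scramble were 0.00 (95% interval -0.15 to 0.16), -0.07 (-0.23 to 0.09), and 0.10 (-0.06 to 0.26). No call was made for *Ctsl* in these comparisons, and the intervals leave changes of more than 0.26 on the log2 scale outside.

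*Ctsb* codes for cathepsin B, an endopeptidase and dipeptidyl carboxypeptidase, on chromosome 14 (GRCm38, 63122462 to 63145923). It was 188.95, 178.30, and 175.90 RPKM in scramble cells. It was 170.20, 170.75, and 146.70 RPKM in *ptgs1*-KO, 142.39, 171.89, and 147.87 RPKM in *ptgs2*-KO, and 149.34, 160.90, and 164.55 RPKM in *ptges*-KO cells. All knockout samples were below all scramble samples. The 3 fold changes (log2) were -0.16 (95% interval -0.35 to 0.03), -0.24 (-0.42 to -0.05), and -0.19 (-0.38 to -0.0047), and the adjusted p from limma was 0.307, 0.103, and 0.122, so none was called. In *ptgs2*-KO cells the difference passed the threshold in 4 of 21 alternatives, among them the fit without *ptgs2*-KO replicate 2 (limma adjusted p = 0.0499), and in *ptges*-KO cells in 2.

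*Ctsa* codes for protective protein cathepsin A, which holds neuraminidase (*Neu1*) and beta-galactosidase (*Glb1*) in a lysosomal complex, and lies on chromosome 2 (GRCm38, 164832873 to 164841032). It was between 86.40 and 113.40 RPKM in all 12 samples, with a median of 94.9 RPKM. The means over the 4 lines were 96.1 ± 2.38, 102.8 ± 12.9, 96.9 ± 14.3, and 92.3 ± 5.30 RPKM (SD, n = 3), and the groups overlapped. The log2 fold changes were 0.09 (95% interval -0.15 to 0.32), 0.00 (-0.23 to 0.24), and -0.06 (-0.29 to 0.17). Of its partners in the complex, *Neu1* was lower in *ptges*-KO cells (log2 fold change -0.64, SE 0.12, limma adjusted p = 0.00205). *Glb1* was lower in *ptgs2*-KO cells (-0.34, SE 0.08, limma adjusted p = 0.0188), a call that held in 17 of 21 alternatives.

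*Ctsk* codes for cathepsin K, the collagen-degrading protease of osteoclasts, and *Ctss* for cathepsin S, a protease of antigen-presenting cells. Their genes lie beside each other on chromosome 3 (GRCm38, 95499256 to 95509362 and 95526786 to 95556403). *Ctsk* was 0.20, 1.02, and 0.83 RPKM in scramble, 0.26, 0.41, and 0.26 RPKM in *ptgs1*-KO, 0.38, 0.40, and 0.57 RPKM in *ptgs2*-KO, and 0.12, 0.19, and 0.23 RPKM in *ptges*-KO cells. The scramble samples of *Ctsk* overlapped those of every other line. In a fit with no filter on low values the log2 fold change of *Ctsk* was -0.33, -0.18, and -0.48, with limma adjusted p of 0.291, 0.569, and 0.0648. *Ctss* was listed above 0 in 3 samples, at 0.09 RPKM in a scramble sample and at 0.05 RPKM in 2 *ptgs2*-KO samples, and at 0 in the other 9. At these levels a difference of *Ctss* between lines was not detectable.

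Cystatin C RNA was about as abundant as that of *Ctsb* and *Ctsz*. *Cst3*, on chromosome 2 (GRCm38, 148871722 to 148875692), was 235.59, 195.36, and 198.77 RPKM in scramble cells. It was 196.86, 244.01, and 183.65 RPKM in *ptgs1*-KO, 133.50, 205.68, and 179.10 RPKM in *ptgs2*-KO, and 187.56, 252.80, and 251.20 RPKM in *ptges*-KO cells. The samples of each line overlapped those of scramble. The log2 fold changes against scramble were -0.02 (95% interval -0.37 to 0.33), -0.30 (-0.65 to 0.05), and 0.13 (-0.23 to 0.48). *Ptges*-KO minus *ptgs2*-KO was 0.42 (0.07 to 0.77, limma adjusted p = 0.0949), and it passed the threshold only without *ptgs2*-KO replicate 2 (0.0487) or *ptges*-KO replicate 1 (0.0299).

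**Figure D3:**
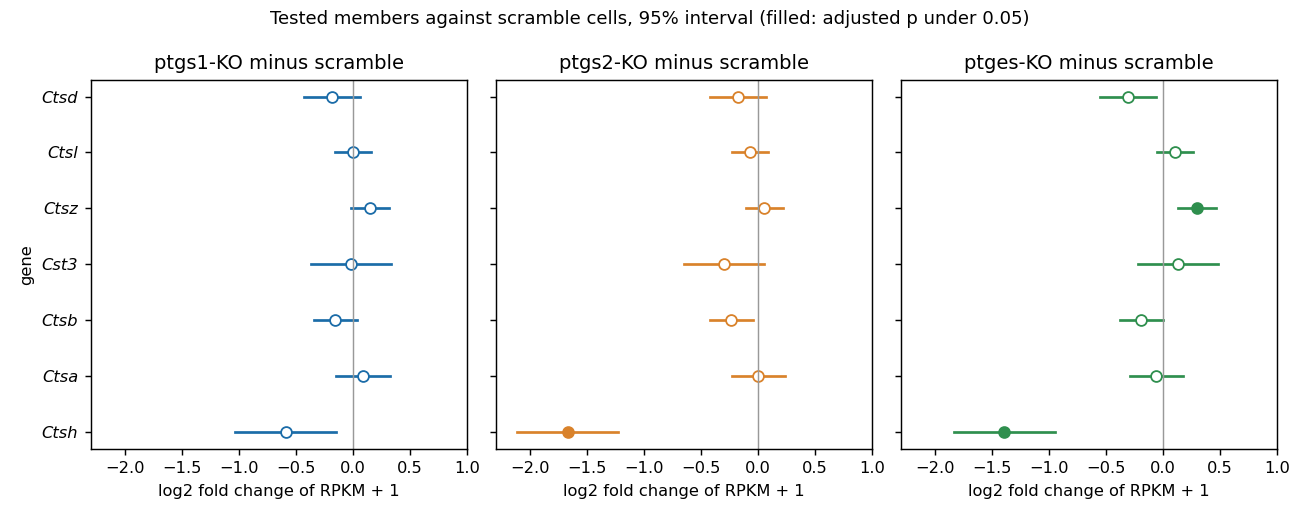
Difference of each tested member from scramble cells, as log2 fold change of RPKM + 1 (horizontal axis), with its 95% interval from limma (3 samples a group). Filled points have an adjusted p under 0.05. *Ctsh* lies at -1.67 and -1.39 in *ptgs2*-KO and *ptges*-KO cells and *Ctsz* at 0.30 in *ptges*-KO cells, and the other intervals reach no further than 0.65 below or 0.48 above 0 apart from *Ctsh* in *ptgs1*-KO cells.

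Other cathepsins were mostly silent. Of 14 further cathepsin genes, 9 were at 0 in all samples, and 3 were tested. *Ctse*, an aspartic protease of endosomes, was abundant at 188.5, 194.3, 179.1, and 155.3 RPKM over the 4 lines, and its difference in *ptges*-KO cells was -0.28 (limma adjusted p = 0.0646). *Ctso* had means of 3.15 to 3.79 RPKM and was not called. *Ctsf*, a cysteine cathepsin, was 2.20, 1.74, and 1.90 RPKM in scramble and 0.07, 0.03, and 0.15 RPKM in *ptgs2*-KO cells, with no overlap. It was 0.83, 1.60, and 1.40 RPKM in *ptgs1*-KO and 0.46, 0.69, and 1.16 RPKM in *ptges*-KO cells, all below scramble. With a mean of 1.02 RPKM, *Ctsf* passed the filter through the lines in which it was high, so these levels are given with no test. *Ctsw* and *Cts8* had no mean above 0.07 RPKM, and *Ctsj*, *Ctsm*, *Ctsq*, *Ctsr*, *Cts3*, *Cts6*, *Cts7*, and *Ctsll3*, together with *Ctsg*, were the 9 at 0.

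Among 22 other inhibitors of the cystatin superfamily and related propeptide-like proteins, 16 were at 0 in all samples and 4 were tested. *Cstb*, the cytosolic cystatin B, was the most abundant, at 203.4, 156.8, 179.8, and 210.7 RPKM over the 4 lines, and was not called against scramble. *Cst6*, the secreted cystatin M/E, was 2.08, 2.02, and 1.50 RPKM in scramble, 0.26, 0.21, and 0.27 RPKM in *ptgs1*-KO, 1.30, 2.15, and 1.91 RPKM in *ptgs2*-KO, and 0.75, 0.88, and 0.81 RPKM in *ptges*-KO cells. The *ptgs1*-KO and *ptges*-KO samples were all below the scramble samples, and the *ptgs2*-KO samples overlapped them. With a mean of 1.18 RPKM, *Cst6* passed the filter through the scramble and *ptgs2*-KO cells, so these levels too are given with no test. *Fetub* and *Ctla2a* were tested and not called against scramble.

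The machinery that delivers cathepsins to the lysosome and matures them was described by 17 genes, of which 16 were tested. The list also holds *Neu1* and *Glb1*, the hydrolases that *Ctsa* binds, so 1 of the lower genes counted in *ptgs2*-KO and 1 of those in *ptges*-KO cells is a hydrolase. Against scramble, 0 were higher and 0 lower in *ptgs1*-KO cells (2 at an unadjusted p under 0.05), 0 higher and 2 lower in *ptgs2*-KO, and 2 higher and 6 lower in *ptges*-KO cells. Lower genes made up 12.5% of the list in *ptgs2*-KO and 37.5% in *ptges*-KO cells, beside 5.17% and 14.4% of all genes tested. Higher genes made up 0% and 12.5%, beside 5.97% and 11.9%. The number called depended on single samples: over 21 alternatives it ran from 0 to 3 in *ptgs2*-KO and from 3 to 11 in *ptges*-KO cells, where it was 3 without *ptges*-KO replicate 2, 5 without *ptges*-KO replicate 3, and 4 without any 1 of the scramble samples. For *ptgs2*-KO cells it was 0 without scramble replicate 2 or 3 or *ptgs2*-KO replicate 1 or 3, and 1 without scramble replicate 1, *ptgs1*-KO replicate 1 or 2, or *ptges*-KO replicate 2 or 3. *Igf2r*, the large mannose 6-phosphate receptor, was 152.9 ± 10.7 RPKM in scramble and 95.3 ± 18.5 RPKM in *ptges*-KO cells (SD, n = 3), a log2 fold change of -0.69 (limma adjusted p = 0.00337). *Gnptab* and *Nagpa*, whose enzymes build the mannose 6-phosphate tag, were lower in *ptges*-KO cells by log2 fold changes of -0.36 and -0.51, calls that held in 17 and 21 of 21 alternatives. *M6pr*, the small mannose 6-phosphate receptor, was not called in any line, with means from 119.9 to 131.5 RPKM. *Scarb2*, a lysosomal membrane receptor, was lower in *ptgs2*-KO cells (-0.32, limma adjusted p = 0.0461), a call that held in 10 of 21 alternatives. *Lgmn*, the protease legumain that matures cathepsins, and *Ap3b1*, an adaptor subunit of lysosomal traffic, were the 2 genes higher in *ptges*-KO cells, by 0.32 and 0.24. The list median in *ptges*-KO cells was -0.17, beside -0.03 for all genes tested.

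Of 35 other lysosomal hydrolases and their cofactors, 33 were tested. In *ptgs1*-KO cells 0 were higher and 2 lower, among them *Manba*, a lysosomal mannosidase (-0.36, limma adjusted p = 0.0272, a call that held in 15 of 21 alternatives). In *ptgs2*-KO cells 0 were higher and 4 lower, and in *ptges*-KO cells 1 was higher and 10 were lower. *Pla2g15*, a lysosomal phospholipase, fell in both, from 20.2 ± 2.91 RPKM in scramble to 9.91 ± 1.48 in *ptgs2*-KO and 9.77 ± 0.526 RPKM in *ptges*-KO cells (SD, n = 3). On the log2 scale these changes were -0.96 and -0.97 (limma adjusted p = 0.000332 and 0.000139). *Naglu*, which degrades heparan sulfate, was lower by -0.54 in *ptgs2*-KO and -0.55 in *ptges*-KO cells. *Arsa* was lower in *ptgs2*-KO cells by -0.51, and *Idua* in *ptges*-KO cells by -0.47. *Gm2a*, the GM2 ganglioside activator, was the gene that was higher in *ptges*-KO cells (0.55, limma adjusted p = 0.00225). The share lower was 6.06%, 12.1%, and 30.3% of the list in the knockouts of *ptgs1*, *ptgs2*, and *ptges*, beside 4.61%, 5.17%, and 14.4% of all genes tested. The share higher was 0%, 0%, and 3.03%, beside 4.65%, 5.97%, and 11.9%. In *ptges*-KO cells the number called in either direction was 11 here and ran from 5 to 18 over 21 alternatives. It was 5 without scramble replicate 2 or without *ptges*-KO replicate 2, and 7 without scramble replicate 1 or 3 or *ptges*-KO replicate 3, and it was 18 when the values were rescaled without the 20 highest genes. The number ran from 3 to 8 in *ptgs2*-KO and from 0 to 4 in *ptgs1*-KO cells.

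Lysosomal membrane proteins and the proton pump that acidifies the lumen were described by 27 genes, all tested. Against scramble 0 were called in *ptgs1*-KO cells (4 at an unadjusted p under 0.05), 2 were higher and 1 lower in *ptgs2*-KO, and 1 was higher and 5 were lower in *ptges*-KO cells. These are 7.41% higher and 3.70% lower in *ptgs2*-KO, beside 5.97% and 5.17% of all genes tested, and 3.70% higher and 18.5% lower in *ptges*-KO cells, beside 11.9% and 14.4%, so the counts are near or below the background. Over 21 alternatives the number called in either direction ran from 2 to 5 in *ptgs2*-KO and from 5 to 11 in *ptges*-KO cells. *Lamp1*, a main membrane protein of the lysosome, had means from 611.8 to 667.2 RPKM and was not called. *Atp6v1a*, the catalytic subunit of the pump, went opposite ways against scramble (70.7 ± 2.43 RPKM), to 88.3 ± 2.55 RPKM in *ptgs2*-KO and 56.3 ± 2.32 RPKM in *ptges*-KO cells (SD, n = 3), with limma adjusted p of 0.00678 and 0.00267. *Atp6v1h* was higher in *ptgs2*-KO cells by 0.26, a call that held in 13 of 21 alternatives. *Atp6ap2*, an accessory subunit, was lower in *ptgs2*-KO cells by -0.43 and in *ptges*-KO cells by -0.44 (limma adjusted p = 0.00254), and *Atp6ap1*, *Atp6v0a2*, and the cholesterol transporter *Npc1* were lower in *ptges*-KO cells by -0.44, -0.51, and -0.53. The call of *Npc1* held in 17 of 21 alternatives. *Laptm4b* was higher in *ptges*-KO cells, at 67.0 ± 3.40 RPKM against 46.2 ± 1.13 RPKM (SD, n = 3), a log2 fold change of 0.53 (limma adjusted p = 0.00138).

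**Figure D4:**
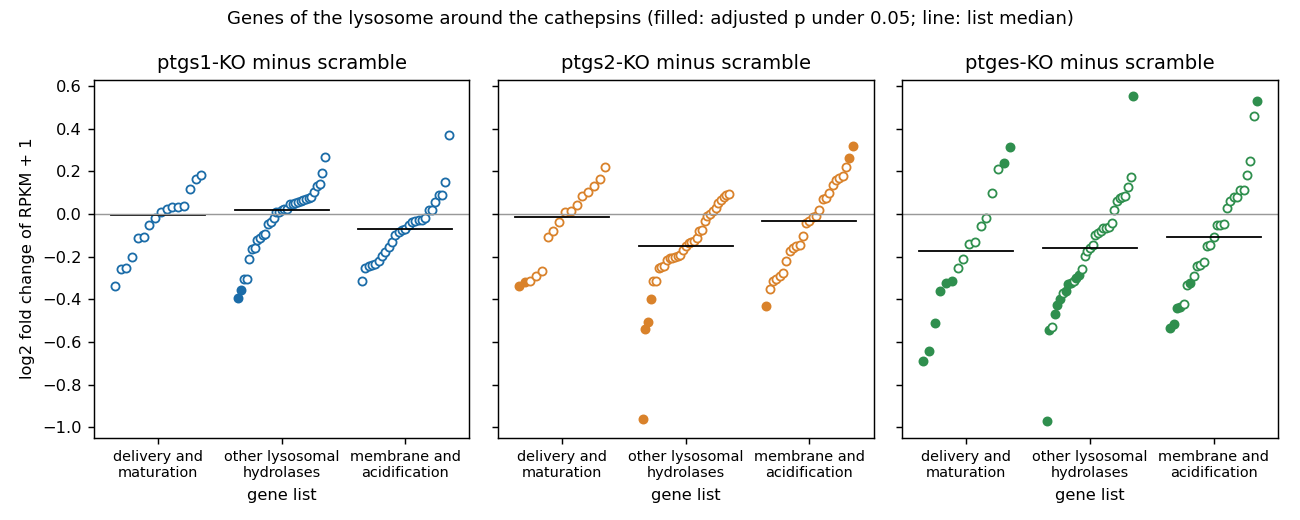
Log2 fold change of RPKM + 1 against scramble cells (vertical axis) of the tested genes of 3 lists, each gene a point, sorted within its list. Filled points have a limma adjusted p under 0.05 and lines mark list medians. In *ptges*-KO cells more filled points lie below 0 than above it in each list, with *Pla2g15* lowest at -0.97 and *Gm2a* highest at 0.55.

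The transcription factors known to drive lysosomal genes were not called in any knockout. *Mitf* had means of 2.68, 2.54, 2.23, and 1.75 RPKM over the 4 lines. *Tfeb* had means from 3.51 to 4.14 RPKM and *Tfe3* from 21.1 to 25.4 RPKM, and *Tfec* was at 0 in all samples. The number with an unadjusted p under 0.05 against scramble was 1 in *ptgs1*-KO cells (*Tfe3*, log2 fold change 0.26, limma adjusted p = 0.120), 0 in *ptgs2*-KO, and 0 in *ptges*-KO cells. *Pdgfra* and *Pdgfrb*, receptors on the fibroblast list, were lower in *ptgs2*-KO cells (-0.93 and -0.75) and in *ptges*-KO cells (-0.52 and -0.996), with limma adjusted p between 6.6e-05 and 0.0399. The summed fibroblast markers were 19.52, 17.51, and 23.97 RPKM in scramble, 35.40, 28.90, and 23.95 RPKM in *ptgs1*-KO, 11.52, 11.23, and 9.75 RPKM in *ptgs2*-KO, and 13.11, 9.93, and 9.56 RPKM in *ptges*-KO cells. *Pdgfra* and *Pdgfrb* made up most of each sum, so the sums mainly repeat these receptors. *Col1a1* had means of 0.31, 0.98, 0.34, and 0.0767 RPKM over the lines, and *Col1a2* of 0.143, 0.247, 0.207, and 0.0267 RPKM. The sums and *Ctsh* were below scramble in *ptgs2*-KO and *ptges*-KO cells. In *ptgs1*-KO cells *Ctsh* was also below scramble in every sample, and 2 of 3 sums were above every scramble sum. The part of fibroblast markers in the level of *Ctsh* was not tested.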

How the data were processed

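RNA-seq of 12 samples (4 lines, 3 each) was used. The authors deposited a single table of RPKM values, normalized for gene length and library size, to 2 decimals, with build mm10 per the labels. Aligner, counter, and annotation are not given in the sources used here. The study's legends call the values RPKM and its methods call them normalized counts. No sample column was left unused. Labels and methods name different RNA and library kits.

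Genes that reached 1 RPKM on average over the 12 samples were tested on log2(RPKM + 1), pseudocount 1, with limma 3.58.1 (lmFit, eBayes with trend, all 12 samples in the model) in R 4.3.3, two-sided, Benjamini-Hochberg over all genes tested, called at 0.05. Fold changes on this scale understate changes of low genes. Positions and the longest transcript linked to RefSeq came from GENCODE M21 (GRCm38). Depth was estimated by fitting the step that 1 read is worth to low values of short genes with a single such transcript, and intervals cover counting error only. Steps were tested on simulated data. Figures used Python 3.11.15 and matplotlib 3.10.9.

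The members and lists were chosen with earlier results of these data known. Named were the members, the targets, listed genes called against scramble (at most 4 per list and comparison, largest first), further cathepsins, MITF and TFE factors, substrates of cathepsin C, the 5 genes most and least correlated with *Ctsc*, and the top gene of each marker list. Other names were chosen after values were seen. Some genes that this rule names are not reported here. *Adgre1* was matched as *Emr1*.

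Replicate numbers were checked for pairing. Deviations from the line means correlated over 0.1 in every same-numbered pair of *ptges*-KO and *ptgs2*-KO samples (0.112 to 0.566) but in no other comparison, and no label says that numbers share a day or batch. The block changed no member's call in that comparison. P-values measure the spread between samples of a line. Alternatives were a pseudocount of 0.1, no filter, a mean of at least 10 RPKM, median ratio scaling, quantile normalization, the replicate block, only the compared groups, no trend, each sample left out, Tukey's test, and, added after seeing the data, rescaling without the 20 highest genes.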

Additional observations from a re-analysis of the deposited data

Results flagged for a closer look

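Results are listed here because the effects of 2 knockouts against the same scramble cells differed. *Ctsh* was lower in *ptgs2*-KO than in *ptgs1*-KO cells, with a log2 fold change of -1.08 (limma adjusted p = 0.00185), and the 3 samples of each line did not overlap. It was also lower in *ptges*-KO than in *ptgs1*-KO cells, by -0.81 (limma adjusted p = 0.0102), again with no overlap. *Ctsz* in *ptges*-KO cells exceeded its *ptgs2*-KO level by 0.24 (limma adjusted p = 0.0458), in 3 of 3 samples.

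*Ctsc* was above every scramble sample in all *ptges*-KO samples and below every scramble sample in all *ptgs1*-KO and *ptgs2*-KO samples. On the log2(RPKM + 1) scale the difference was 5.04 for *ptges*-KO against *ptgs1*-KO cells and 3.23 for *ptges*-KO against *ptgs2*-KO. Over 21 alternatives these values ran from 4.92 to 7.57 and from 3.11 to 3.58, highest with a pseudocount of 0.1, since the scale understates changes of low values. These differences were not tested, since *Ctsc* was chosen for them.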

How the results depend on the processing

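The 4 calls of *Ctsh* held under each limma alternative that tested it. With a mean of at least 10 RPKM it was not tested, so the members called fell to 0 in *ptgs2*-KO and 1 in *ptges*-KO cells against scramble and to 0 in both against *ptgs1*-KO cells. That filter also gave 0 members for *ptges*-KO against *ptgs2*-KO and 582 genes in *ptgs1*-KO cells. Quantile normalization gave 1570 genes in *ptgs1*-KO cells and 2 members in *ptgs2*-KO, 4 in *ptges*-KO, and 2 between *ptges*-KO and *ptgs1*-KO cells. The median ratio gave 1961 genes and 2 members in *ptgs2*-KO cells, and 2 members in *ptges*-KO cells against each of *ptgs1*-KO and *ptgs2*-KO. Rescaling without the 20 highest genes gave 2 members in *ptgs2*-KO and 4 in *ptges*-KO cells. Tukey's test, unadjusted over genes, called 1 member (*Ctsh*) in *ptgs1*-KO cells, 0 in *ptges*-KO against *ptgs1*-KO, and 2 in *ptges*-KO against *ptgs2*-KO, where the fit of only the 2 groups and that without trend called 0. The causes were not tested.

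Genes higher and lower in *ptges*-KO cells were 1342 and 1627 against scramble, 2054 and 1715 by the median ratio, 1870 and 1606 by quantile normalization, and 1059 and 2362 after rescaling. Against *ptgs1*-KO cells they were 1494 and 1915, 2209 and 1907, 1970 and 1791, and 1210 and 2766. Against *ptgs2*-KO cells they were 763 and 1110, 1290 and 1208, 1092 and 1253, and 693 and 1751, in the same order of settings.

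Leaving out 1 sample gave 645 to 1163 genes in *ptgs1*-KO cells (lowest without scramble replicate 1), 722 to 1559 in *ptgs2*-KO (scramble replicate 1), 1936 to 3282 in *ptges*-KO (*ptges*-KO replicate 2), and 1104 to 2236 for *ptges*-KO against *ptgs2*-KO (*ptges*-KO replicate 2). Members called were then 0 to 1, 1 to 2, 1 to 3, and 0 to 2. The call of *Ctsz* between *ptges*-KO and *ptgs2*-KO cells was lost when any of 9 samples was left out, all but *ptgs1*-KO replicates 1 and 3 and *ptgs2*-KO replicate 2, and 2 members were called without *ptgs2*-KO replicate 2.

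The replicate block gave 1105, 1365, and 3099 genes against scramble, and 2771, 3561, and 2011 between *ptgs2*-KO and *ptgs1*-KO, *ptges*-KO and *ptgs1*-KO, and for *ptges*-KO against *ptgs2*-KO. It called *Ctsd* in *ptges*-KO cells (limma adjusted p = 0.0495), 3 members in all, and changed no other member's call. No label says that samples share more than a number. The mean same-number correlation was 0.311 for *ptges*-KO against *ptgs2*-KO and from -0.234 to 0.129 in the other comparisons. Against scramble every same-number correlation was negative in *ptgs2*-KO (-0.28 to -0.12) and *ptges*-KO cells (-0.34 to -0.17).

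Signs that turned belonged to differences that limma called under no setting. *Ctsa* in *ptgs2*-KO cells was -0.0064, -0.041, and -0.012 by the median ratio, quantile normalization, and rescaling, and -0.11 to 0.069 with a sample left out. *Ctsa* between *ptges*-KO and *ptgs2*-KO cells was -0.13 to 0.055 with a sample left out. *Ctsb* between *ptges*-KO and *ptgs1*-KO cells was 0.018 by the median ratio and -0.11 to 0.0050 with a sample left out, and for *ptges*-KO against *ptgs2*-KO -0.011 after rescaling and -0.012 to 0.12. *Ctsd* between *ptgs2*-KO and *ptgs1*-KO cells was -0.041 by quantile normalization, -0.013 after rescaling, and -0.12 to 0.077. *Ctsl* in *ptgs1*-KO cells was -0.00848 by the median ratio and -0.028 to 0.030, and by quantile normalization -3.4e-05 in *ptges*-KO cells and -0.028 against *ptgs1*-KO cells. *Ctsz* in *ptgs2*-KO cells was -0.010 to 0.096. *Cst3* in *ptgs1*-KO cells was 0.0012 by quantile normalization and -0.14 to 0.068.

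Estimated reads a sample were 3 to 24 for *Ctsk*, at most 2 for *Ctss*, and 2 to 6 for *Ctsc* in *ptgs1*-KO cells. Values given to 2 decimals add rounding error at these levels.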
